A study of Mus musculus with 8 samples.

Results

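Gene expression in RB-deficient mouse fibroblasts that had regrown after cisplatin was compared with that in untreated cells of the same genotype, on 4 of the 8 arrays of the study. The 2 Cre Recurred and the 2 Cre Naïve arrays were taken by their labels, and no measured value entered the choice. The cells were mouse adult fibroblasts (MAFs) from peritoneal fascia of mice with a floxed Rb allele, and every population, controls included, had been infected with a retrovirus for p53DD, a fragment of p53 that blocks the protein of the cell. Cre Naïve cells had received an adenovirus for GFP and Cre recombinase, which deletes the floxed part of Rb, and no drug. Cre Recurred cells carried the same deletion and had been exposed to cisplatin (CDDP) for 24 h, after which they were left to grow out in fresh medium. The GFP Naïve and GFP Recurred cells, 2 arrays each, had received GFP alone and kept RB. Infected cells were selected and pooled before the drug was given, and how many cells the regrown populations stem from was not measured. The labels call the arrays of a population biological replicates, and the methods describe populations generated independently.

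RB holds E2F transcription factors in check and halts the cell cycle after DNA damage, whereas p53 activates genes of arrest and cell death in damaged cells. Cisplatin crosslinks DNA, and cells that lack both brakes can go on dividing with damaged DNA. Peritoneal fibroblasts make collagen, proteoglycans and other matrix proteins, and secrete factors that restrain or pass on growth signals such as Wnt. Signals are given as log2 values after RMA, a procedure that corrects background, normalises arrays and combines the probes of a probe set, so that each step of 1 stands for a fold change of 2. Levels of different genes are not compared, since probes differ in brightness. With bulk RNA from a culture, fewer cells that express a gene and less RNA per cell cannot be told apart.

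Rb1, the deleted gene, was low on all 4 Cre arrays. Its log2 signal was 6.21 and 5.72 on Cre Naïve replicates 1 and 2, and 4.98 and 5.45 on the Cre Recurred arrays. The 4 GFP arrays lay from 7.98 to 8.78, so the Cre and GFP arrays did not overlap. Recurrence itself made a difference of -0.75 (standard error 0.26, adjusted p = 0.37 from limma), which passed no threshold. The fibroblast label was checked as well: 15 of 19 fibroblast markers were above the 75th percentile of the array on all 8 arrays. Below the median on all 8 arrays were 7 of 8 endothelial, 7 of 11 leukocyte and 8 of 14 mesothelial and epithelial markers. The endothelial gene Pecam1 lay between 3.22 and 3.91. Of muscle and adipocyte markers only 4 of 9 were below the median on all 8 arrays. In the leukocyte list 1 marker was above the 75th percentile on all 8.

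The Cre Naïve arrays differed from each other. At 4766 of 45037 probe sets they were 1.5-fold or more apart, against 3842 for the Cre Recurred arrays, 4710 for the GFP Naïve arrays and 1455 for the GFP Recurred arrays. The log2 signals of Cre Naïve replicate 2 had a higher Pearson r with Cre Recurred replicate 2 (0.992) than with its own replicate (0.986), a description across probe sets, which are not independent. Each replicate is therefore given below.

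Recurred RB-deficient cells had far less transcript of a small set of genes than untreated ones, and more of very few. Of 18193 genes, each read at its brightest probe set, 17 (0.0934%) passed a 1.5-fold difference and an adjusted p under 0.05. Of these, 14 (0.077%) fell: the secreted Wnt antagonist Sfrp1, the retinol carrier Rbp4, the protease inhibitor Tfpi2, the chaperones Hspa1a and Dnaja4, the G protein signalling regulator Rgs4, the protein kinase A subunit Prkar1b, the zinc finger gene Tshz2, and Endog, Entpd5, Foxred2, Klhl23, Rnf113a2 and 2210016F16Rik. The 3 (0.0165%) that rose were Dppa2, a gene of pluripotent cells and early germ cells, Rgs20 and the clathrin adaptor subunit Ap1s3. At the thresholds of the study, 1.5-fold and an adjusted p under 0.25, 301 genes (1.65%) differed, 218 lower (1.2%) and 83 higher (0.456%). By probe set, 524 of 45037 (1.16%) passed the looser thresholds, 349 lower (0.775%) and 175 higher (0.389%), and 24 (0.0533%) the stricter, 20 lower (0.0444%) and 4 higher (0.00888%). The looser threshold admits more false calls, so a gene is said to rise or fall only at the stricter one, and is called lower or higher at the looser one.

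Differences were larger on the lower side. Among called probe sets the median log2 difference was -1.34 for those lower and 0.95 for those higher, and 92 lower but 15 higher probe sets differed 4-fold or more. On 343 of the 349 lower probe sets both Cre Recurred arrays lay below all 6 other arrays, which was so for 7.37% of all probe sets. The same held upwards for 170 of the 175 higher probe sets, against 11.9% of all. These counts come from the arrays that made the calls and are a description.

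The calls depend on single arrays. Without Cre Recurred replicate 1 the count of 524 was 19, and without either GFP Recurred array 54, whereas omission of Cre Naïve replicate 1 gave 207, of Cre Naïve replicate 2 gave 2895 and of Cre Recurred replicate 2 gave 2789. No probe set passed the stricter threshold without Cre Recurred replicate 1 or either GFP Recurred array, against 24 with all arrays and 279 without Cre Naïve replicate 2. Each rise or fall named here shares that limit. Only Hspa1a, Rgs4 and 2210016F16Rik of the 17 genes were still past the stricter threshold both without Cre Naïve replicate 1 and without Cre Recurred replicate 2. Their log2 differences with any 1 array left out stayed between -3.74 and -3.23, -2.69 and -2.37, and -3.82 and -3.28, respectively. With 2 arrays on each side the smallest two-sided p of an exact permutation test is 0.333, so every test here borrows the spread of the other populations.

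**Figure D1:**
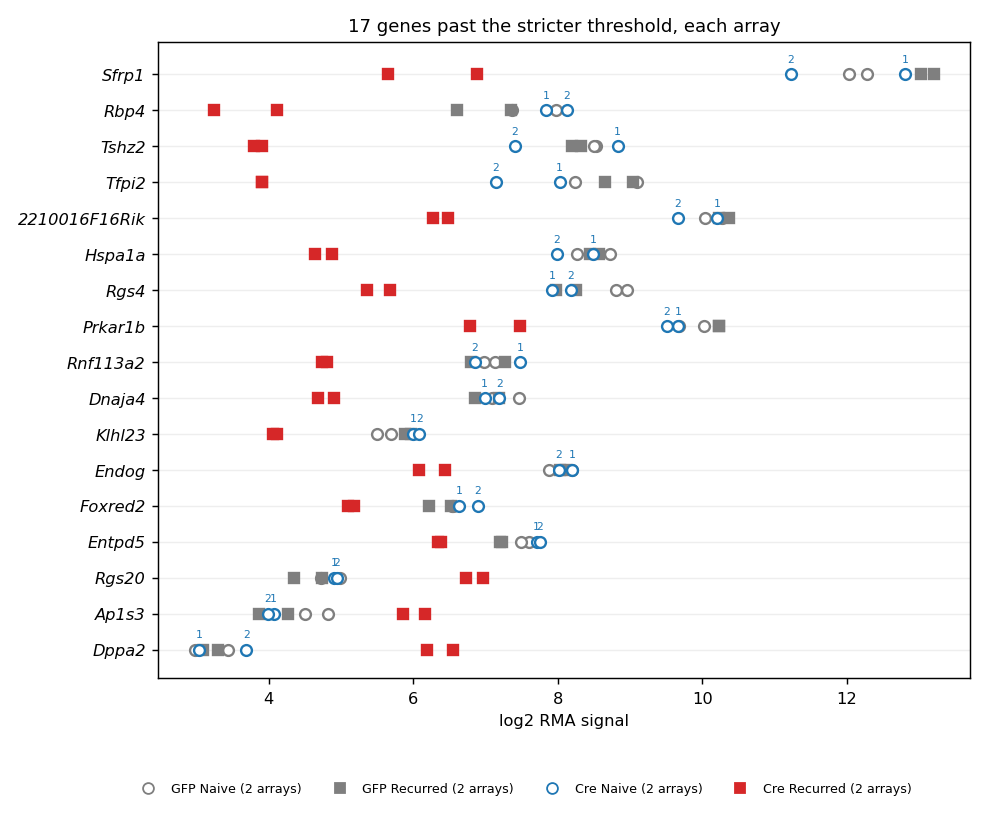
Log2 RMA signal (horizontal axis) of the 17 genes past 1.5-fold and an adjusted p under 0.05, ordered by their difference, with 1 point for each of the 8 arrays and the replicate number above the Cre Naïve points. For Hspa1a the Cre Recurred arrays lie at 4.64 and 4.88 and the Cre Naïve arrays at 8.49 and 7.99, beside the GFP arrays.

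Promoter sequence was looked at because genes of unlike function had moved together. RefSeq promoter windows (GRCm38.p6) were at hand for 172 of the 218 lower genes, 60 of the 83 higher ones and 14452 of all 18193 measured genes, and the 250 bases before the start were read. CG dinucleotides, the sites of DNA methylation in mammals, had a median count of 15 in the lower genes (quartiles 8 and 24.8), 14 in the higher genes (4.5 and 18.8) and 13 in all measured genes (5 and 21). The letters TATAAA, on either strand, stood in 8.72% of the lower, 5% of the higher and 9.02% of all measured genes. The heat shock element in its shortest form, GAANNTTC or TTCNNGAA (each reads the same on both strands), was found in 10.5%, 8.33% and 11.1%. The lower genes were close to all measured genes in each of these counts. Of the 13 genes past the stricter threshold that had a window, 3 (23.1%) held TATAAA and 3 (23.1%) the heat shock element, and the median CG count was 13. The windows below show that range: in Hspa1a the capitals mark the heat shock element, through which this gene is known to be induced, and in the others each CG.
Hspa1a (chr17:34972157-34972406, minus strand): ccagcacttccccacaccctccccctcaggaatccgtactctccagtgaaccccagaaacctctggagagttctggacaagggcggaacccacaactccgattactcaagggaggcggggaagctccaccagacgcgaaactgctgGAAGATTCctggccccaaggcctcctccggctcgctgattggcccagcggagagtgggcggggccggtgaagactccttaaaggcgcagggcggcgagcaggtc
Rgs4 (chr1:169747643-169747892, minus strand): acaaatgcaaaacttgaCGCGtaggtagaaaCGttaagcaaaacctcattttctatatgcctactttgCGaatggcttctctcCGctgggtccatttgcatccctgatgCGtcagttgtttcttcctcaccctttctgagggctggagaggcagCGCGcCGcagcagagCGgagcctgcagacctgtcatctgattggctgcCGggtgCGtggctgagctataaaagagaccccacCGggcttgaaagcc
Rgs2 (chr1:144004150-144004399, minus strand): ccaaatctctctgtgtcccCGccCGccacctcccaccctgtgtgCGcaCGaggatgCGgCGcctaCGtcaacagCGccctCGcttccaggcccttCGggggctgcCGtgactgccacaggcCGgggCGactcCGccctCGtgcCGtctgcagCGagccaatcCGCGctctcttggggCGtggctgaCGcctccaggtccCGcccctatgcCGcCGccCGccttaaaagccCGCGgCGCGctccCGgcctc
Wnt4 (chr4:137277385-137277634, plus strand): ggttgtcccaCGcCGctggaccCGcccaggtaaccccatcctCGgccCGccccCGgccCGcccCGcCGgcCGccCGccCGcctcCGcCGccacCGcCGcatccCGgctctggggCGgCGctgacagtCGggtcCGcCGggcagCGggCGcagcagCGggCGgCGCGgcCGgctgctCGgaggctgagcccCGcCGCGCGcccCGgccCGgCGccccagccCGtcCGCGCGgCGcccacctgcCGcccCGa
Rbp4 (chr19:38125322-38125571, minus strand): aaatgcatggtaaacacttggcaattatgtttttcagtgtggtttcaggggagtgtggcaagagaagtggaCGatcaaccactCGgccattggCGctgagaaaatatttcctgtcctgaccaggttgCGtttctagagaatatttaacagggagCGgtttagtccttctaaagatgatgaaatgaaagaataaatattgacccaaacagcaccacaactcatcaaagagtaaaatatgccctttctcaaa
Tshz2 (chr2:169632259-169632508, plus strand): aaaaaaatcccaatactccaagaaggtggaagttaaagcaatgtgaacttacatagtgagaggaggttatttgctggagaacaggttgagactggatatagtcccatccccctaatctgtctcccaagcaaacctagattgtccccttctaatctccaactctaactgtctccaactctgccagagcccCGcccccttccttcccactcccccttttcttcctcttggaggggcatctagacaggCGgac
Gabrg1 (chr5:70842618-70842867, minus strand): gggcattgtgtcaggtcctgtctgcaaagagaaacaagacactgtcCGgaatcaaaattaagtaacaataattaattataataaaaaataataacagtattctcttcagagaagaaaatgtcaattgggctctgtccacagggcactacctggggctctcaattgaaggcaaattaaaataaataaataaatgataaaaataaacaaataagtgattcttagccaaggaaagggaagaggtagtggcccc
Hspa1a holds 1 heat shock element in its window. The regulators Rgs4 and Rgs2 hold 13 and 30 CG and Wnt4 44, whereas Rbp4 and Tshz2, which fell further than Rgs4, hold 5 and 2. Gabrg1, one of the genes higher in the recurred cells, holds 1. Dnaja4, which also fell, had no heat shock element and 23 CG.

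Wnt ligands signal through Frizzled receptors, secreted frizzled-related proteins bind the ligands outside the cell, and Ror receptors carry signals of Wnt5a-type ligands. Sfrp1 (chr8:23411383-23449632) had log2 signals of 12.81 and 11.23 on Cre Naïve replicates 1 and 2, and 5.65 and 6.88 on the Cre Recurred arrays. It fell 53.9-fold (log2 difference -5.75, standard error 0.55), and the nearest arrays of the populations were still 4.34 apart on the log2 scale. The adjusted p of 0.034 came from limma over all populations, GFP arrays included, with 2 arrays in each. With only the 4 Cre arrays in the fit, Sfrp1 did not pass the stricter threshold. Of its 5 probe sets, 4 were lower at the study's thresholds, 2 of them at the stricter one. Sfrp2, a relative of Sfrp1, had 10.76 and 7.05 against 3.66 and 3.62. Replicate 2 of the Cre Naïve cells was thus already far below replicate 1 and the GFP arrays (10.04 to 10.82), and the difference of -5.26 (standard error 1.01, adjusted p = 0.20) passed only the looser threshold.

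Wnt4 was even between Cre Naïve replicates, with 8.27 and 8.43 against 5.51 and 5.65, a difference of -2.77 (standard error 0.31, adjusted p = 0.055). Ror2 had 8.42 and 8.27 against 5.35 and 6.48 (log2 difference -2.43, adjusted p = 0.096), and Ror1 6.84 and 5.93 against 4.04 and 4.40 (log2 difference -2.17, adjusted p = 0.086). Each was lower at the study's thresholds. Dimmer probe sets of Ror1 had 0.20 and 0.23 and that of Wnt4 -0.87, none past a threshold. That of Ror2 had -2.17 and passed the looser one. None of these 3 genes overlapped between the populations, which was so for 45.2% of all genes, 17.8% on the lower side and 27.4% on the higher. Wnt5a, the ligand that Ror receptors bind, had 8.21 and 6.23 against 4.49 and 4.41, and its difference of -2.77 passed neither threshold (adjusted p = 0.29). By list, 2 of 15 secreted Wnt antagonists (Sfrp1 and Sfrp2) and 3 of 42 ligands, receptors and targets (Wnt4, Ror1 and Ror2) were lower and none was higher, against 1.2% lower and 0.456% higher of all genes, with medians of 0.07 and 0.08 against 0.05 over all genes. The sign of both medians turned in some alternatives, to -0.57 and -0.21 when dim probe sets were left out. Dkk3 (log2 difference -0.98, adjusted p = 0.31) and Sfrp5 (0.54, adjusted p = 0.36) passed no threshold.

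Among matrix genes, single members differed much and the lists little. Lum encodes lumican, a small leucine-rich proteoglycan that spaces collagen fibrils, and had 13.15 and 10.35 against 4.61 and 6.28. It was 79.1-fold lower at the study's thresholds (log2 difference -6.31, standard error 0.93, adjusted p = 0.11), the largest difference among genes read at their brightest probe set. A dimmer probe set of Sfrp1 had -6.74, and Lum on Cre Recurred replicate 1 was below the array median, where the size of a difference is less certain. Both populations were uneven, but the nearest arrays were 4.08 apart. Other proteoglycans did not pass: Dcn (decorin) had 13.35 and 12.74 against 10.95 and 12.53 (adjusted p = 0.37), and Prelp 10.15 and 8.42 against 4.68 and 7.10 (adjusted p = 0.36). For both, Cre Recurred replicate 1 was the low array and replicate 2 lay nearer to the Cre Naïve cells. Of 15 proteoglycans 11 were negative (median -0.32) and 1 was called. Of all genes, 1.65% were called and 57.2% had a positive difference.

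Among 57 matrix glycoproteins and crosslinkers, 36 were negative (median -0.29), 3 were lower and 1 higher at the study's thresholds. Of all genes, 1.2% were lower and 0.456% higher. Smoc2, a calcium-binding matrix protein, had 7.81 and 6.39 against 4.09 and 4.21 (log2 difference -2.95, adjusted p = 0.11). Fbln7 (fibulin 7) had 7.50 and 6.01 against 4.14 and 4.44 (log2 difference -2.47, adjusted p = 0.21), and tenascin C, Tnc, 12.93 and 11.82 against 10.30 and 10.78 (log2 difference -1.84, adjusted p = 0.21). In all 3 the lower Cre Naïve array was replicate 2, and it lay over 1 log2 unit above the higher Cre Recurred array. The crosslinking enzyme Loxl4 was higher, with 6.75 and 7.41 against 8.56 and 8.04 (log2 difference 1.22, adjusted p = 0.249). None of 36 collagens was called (median -0.02, range -1.33 to 1.09), with Col6a3 at -0.70 and Col4a2 at 0.61.

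Proteolysis at the cell surface is balanced by secreted inhibitors. Tfpi2, a Kunitz-type inhibitor of plasmin and other serine proteases in the matrix, fell from 8.03 and 7.15 to 3.90 on both Cre Recurred arrays, 12.8-fold (log2 difference -3.68, standard error 0.36, adjusted p = 0.037). It was the 1 called gene of 20 plasminogen activators, serpins and Kunitz inhibitors (median -0.09). The metalloproteinases Mmp3 and Mmp23 lay 13.6-fold and 9.55-fold lower in the means. At their brightest probe sets they passed neither threshold (adjusted p = 0.26 for both). Their Cre Naïve arrays were 12.60 and 9.49 for Mmp3, and 10.10 and 7.36 for Mmp23, against Cre Recurred values of 7.27 and 7.29, and 5.29 and 5.66. Replicate 2 thus lay between the other Cre Naïve array and the recurred cells in both genes. A second, dimmer probe set of Mmp23 had a log2 difference of -3.42 and passed the looser threshold (adjusted p = 0.20 from limma). Adam8, a membrane protease, was higher, with 4.76 and 5.34 against 6.46 and 6.64 (2.83-fold, adjusted p = 0.14). By brightest probe set it was the 1 called gene of 39 metalloproteinases and TIMPs (25 negative, median -0.34). Of all genes, 0.456% were higher and 1.2% lower, and 57.2% had a positive difference (median 0.05).

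Several secreted signals were lower at the study's thresholds. Il1rn, the interleukin 1 receptor antagonist, had 9.62 and 7.50 against 3.92 and 5.30 (log2 difference -3.95, adjusted p = 0.18). Inhbb, the subunit of activin B, had 8.83 and 7.44 against 3.94 and 5.21 (log2 difference -3.56, adjusted p = 0.11), and Gas6, a ligand of Axl receptors, 10.13 and 8.34 against 6.16 and 6.11 (log2 difference -3.10, adjusted p = 0.19). The populations were at least 2.19 apart in all 3 genes. Second probe sets of Inhbb and Gas6 had log2 differences of 0.04 and 0.18, and those of Il1rn -2.31 and -2.26, none past a threshold. Tnfrsf11b (osteoprotegerin, a decoy receptor of RANKL) was even within populations, with 6.17 and 6.62 against 4.35 and 4.19 (log2 difference -2.12, standard error 0.23, adjusted p = 0.052). In GFP cells it was higher after recurrence, with a log2 difference of 2.39 (adjusted p = 0.17). Igfbp3 (log2 difference -3.24, adjusted p = 0.30) and the activin antagonist Fst (-2.61, adjusted p = 0.31) did not pass. By list, 2 of 44 chemokines and cytokines were lower, as were 1 of 41 genes of the activin, BMP and TGF-beta family and 1 of 41 EGF, FGF, PDGF and HGF signals. None was higher, against 1.2% lower and 0.456% higher of all genes, and the medians were -0.24, -0.31 and 0.03.

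Regulators of G protein signalling (RGS proteins) speed up GTP hydrolysis by G alpha subunits and so end the signal. Called members were found in both directions. Rgs4 (chr1:169741477-169747642) fell from 7.92 and 8.18 to 5.36 and 5.68 (log2 difference -2.53, standard error 0.18, adjusted p = 0.015), and Rgs2 was lower, with 7.71 and 6.41 against 3.76 and 3.13 (log2 difference -3.62, adjusted p = 0.096). Rgs20 rose from 4.91 and 4.94 to 6.97 and 6.73 (log2 difference 1.92, standard error 0.18, adjusted p = 0.034). These were the 3 called genes of 20, against 1.65% of all genes (1.2% lower and 0.456% higher), and the median was 0.02. Not every probe set followed: those of Rgs20 ran from 0.13 to 1.92 and those of Rgs4 from -2.53 to -0.57. Prkar1b, a regulatory subunit that holds protein kinase A inactive until cyclic AMP binds, fell from 9.67 and 9.51 to 6.78 and 7.47 (log2 difference -2.46, standard error 0.24, adjusted p = 0.034), and 4 of its 5 probe sets were called at the looser threshold.

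Chaperones of the heat shock response fold damaged proteins. Hspa1a, an inducible Hsp70, fell from 8.49 and 7.99 to 4.64 and 4.88, 11.2-fold (log2 difference -3.48, standard error 0.22, adjusted p = 0.012). Its co-chaperone of the Hsp40 family Dnaja4 fell from 6.99 and 7.19 to 4.90 and 4.68 (log2 difference -2.30, standard error 0.19, adjusted p = 0.029), with 2 of 3 probe sets past the stricter threshold. Both genes were even across the other 6 arrays, 7.99 to 8.72 for Hspa1a and 6.86 to 7.46 for Dnaja4. Hspa1b, a near-identical copy of Hspa1a whose transcripts probes may not separate, had 10.97 and 11.14 against 9.85 and 10.26 (2.002-fold lower, adjusted p = 0.19), so the extent at either copy is uncertain. The small heat shock protein Hspb1 had 11.69 and 11.84 against 10.73 and 10.78 (log2 difference -1.01, adjusted p = 0.095). In a chaperone list drawn up after values had been seen, these were the 4 of 33 genes lower at the study's thresholds and none was higher. The list median was -0.18, and 1.2% of all genes were lower and 0.456% higher. Hspb1, Hspa1b and Dnajb1 were named after their values were seen, and Dnajb1, another inducible member, had a difference of 0.35 (adjusted p = 0.49).

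Retinol reaches cells bound to Rbp4, is oxidised by dehydrogenases and acts through RAR and RXR receptors. Rbp4 (chr19:38116620-38125321) was even within populations and fell from 7.84 and 8.13 to 3.25 and 4.12, 19.7-fold (log2 difference -4.30, standard error 0.37, adjusted p = 0.029). The retinal reductase Rdh11 (8.72 and 8.60 against 7.43 and 7.78, adjusted p = 0.13) and the receptor Rxra (8.12 and 7.95 against 7.02 and 7.45, adjusted p = 0.22) were lower at the study's thresholds, with log2 differences of -1.06 and -0.80. With Rbp4 they made up 3 of 23 retinoid genes, none was higher (1.2% and 0.456% of all genes), and the median was 0.05. Dimmer probe sets of Rdh11 (-0.74) and Rxra (0.15 and 0.35) passed no threshold. Cyp26a1, which degrades retinoic acid, had a difference of 0.70 (adjusted p = 0.31).

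Endog, Foxred2 and Entpd5 fell as well. Endog, a mitochondrial nuclease, went from 8.20 and 8.02 to 6.08 and 6.44 (log2 difference -1.84, adjusted p = 0.034). Foxred2 and Entpd5, both of the endoplasmic reticulum, went from 6.64 and 6.89 to 5.09 and 5.19 (log2 difference -1.62, adjusted p = 0.034) and from 7.71 and 7.75 to 6.39 and 6.34 (log2 difference -1.37, adjusted p = 0.029). In all 3 the Cre Naïve replicates were near level. Entpd5 and Rnf113a2 (7.48 and 6.85 against 4.81 and 4.74, log2 difference -2.39, adjusted p = 0.039) are neighbours on chromosome 12, with 8170 bases between them, while the 17 genes lay on 12 chromosomes in all. Coq6, next to Entpd5 on its other side, had 8.23 and 8.21 against 7.73 and 7.94 (log2 difference -0.39, adjusted p = 0.35), and Bbof1, which spans the space between the pair, had -0.05, with a sign that turned to 0.15 without Cre Naïve replicate 2 and 0.03 without Cre Recurred replicate 1. These were chosen after their values were seen. Of the 6 probe sets of Entpd5, which ran from -1.37 to -0.02, 1 passed the stricter threshold and 2 the looser.

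Klhl23, a BTB-Kelch protein, fell from 5.996 and 6.09 to 4.11 and 4.07 (log2 difference -1.95, standard error 0.13, adjusted p = 0.012). The uncharacterised gene 2210016F16Rik fell from 10.20 and 9.66 to 6.28 and 6.49 (log2 difference -3.55, standard error 0.20, adjusted p = 0.012), although another of its 3 probe sets had 0.25. The gap between the nearest arrays of the populations was 1.88 for Klhl23 and 3.18 for 2210016F16Rik. Ch25h, which makes 25-hydroxycholesterol, was lower at the study's thresholds, with 9.93 and 8.67 against 4.20 and 5.72 (log2 difference -4.34, adjusted p = 0.11).

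Transcription factors of development were lower in 4 of 72 measured genes and higher in none, against 1.2% and 0.456% of all genes (median -0.04). Tshz2, a zinc finger factor of the teashirt family, fell from 8.83 and 7.41 to 3.79 and 3.91 (log2 difference -4.27, standard error 0.40, adjusted p = 0.034) at 1 of its 3 probe sets, while the others had -1.18 and -0.31 and passed no threshold. Isl1, a LIM homeobox factor, had 8.67 and 6.63 against 4.03 and 3.54 (log2 difference -3.86, adjusted p = 0.20). Pitx1 (log2 difference -1.61) and Gata2 (-0.73) were also lower (adjusted p = 0.17 for both). Gata2 was lower after recurrence in GFP cells as well, with a log2 difference of -1.30 (adjusted p = 0.21). Of 33 Hox genes none was called, the most negative being Hoxc10 at -1.36 (adjusted p = 0.34).

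A few genes differed across the middle of the array. Above the 75th percentile on both Cre Naïve arrays and below the median on both Cre Recurred arrays were 3 genes: Rpl39l, AW551984 and Hspa1a, and on the 4 GFP arrays all 3 had at least 8.27. Rpl39l, a ribosomal protein paralog best known from testis, had 10.98 and 8.94 against 3.73 and 3.89, 71.1-fold lower (log2 difference -6.15, standard error 0.76, adjusted p = 0.083). AW551984 had 10.53 and 8.34 against 3.84 and 4.06 (log2 difference -5.48, adjusted p = 0.053), while its dimmer probe sets had -1.35 and -0.58 and passed no threshold. No gene was below the median in the Cre Naïve and above the 75th percentile in the Cre Recurred arrays.

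**Figure D2:**
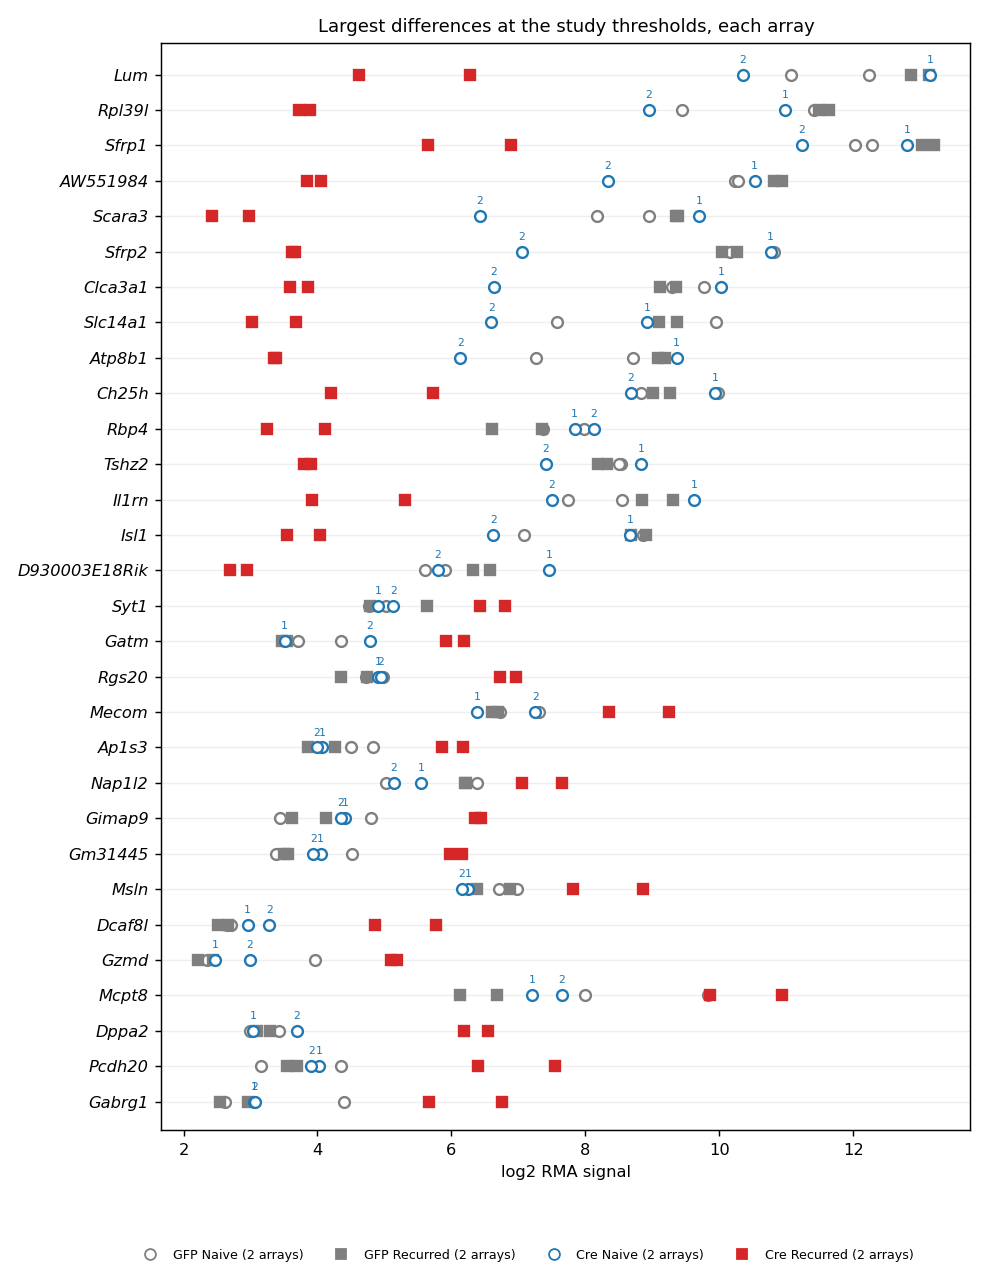
Log2 RMA signal (horizontal axis) on each of the 8 arrays for the 15 genes with the most negative and the 15 with the most positive difference among those past the study's thresholds, with the replicate number above the Cre Naïve points. Cre Naïve replicate 2 lies between replicate 1 and the Cre Recurred arrays for genes such as Scara3 (9.70, 6.42, 2.98 and 2.42) and is level with replicate 1 for Pcdh20 (4.03, 3.91, 7.55 and 6.40).

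Fewer genes were higher. Dppa2 (chr16:48310274-48319513), a chromatin-bound protein of pluripotent cells, rose from 3.04 and 3.69 to 6.19 and 6.55, 8.03-fold (log2 difference 3.005, standard error 0.26, adjusted p = 0.030), and both its probe sets passed the stricter threshold. On the GFP arrays it lay from 2.99 to 3.43. Among germline and pluripotency genes 1 of 42 was higher, Dppa2, and 1 lower, Rpl39l, with a median of 0.09. Of all genes, 0.456% were higher and 1.2% lower. Rhox5 had 5.59 and 6.71 against 7.50 and 7.68 (adjusted p = 0.32), and a like difference in GFP cells (1.63 against 1.44). Ap1s3 rose from 4.07 and 3.99 to 6.17 and 5.85 (log2 difference 1.98, standard error 0.19, adjusted p = 0.037).

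Other genes were higher at the study's thresholds. Gabrg1, a GABA-A receptor subunit, had 3.06 on both Cre Naïve arrays against 6.76 and 5.66 (log2 difference 3.15, adjusted p = 0.18). The protocadherin Pcdh20 had 4.03 and 3.91 against 7.55 and 6.40 (log2 difference 3.01, adjusted p = 0.12), and Syt1, a calcium sensor of vesicles, 4.90 and 5.13 against 6.42 and 6.79 (log2 difference 1.59, adjusted p = 0.17). In these genes the Cre Naïve replicates were within 0.25 of each other. Msln, a mesothelial surface protein, had 6.25 and 6.15 against 8.85 and 7.82 (log2 difference 2.14, adjusted p = 0.13), and Krt7 4.04 and 3.87 against 4.64 and 4.78 (log2 difference 0.76, adjusted p = 0.15). They were the 2 called of 14 mesothelial and epithelial markers (median 0.04), against 0.456% higher and 1.2% lower of all genes. Bnc1, a transcription factor of the same list, had 7.76 and 3.94 against 2.76 and 2.96 (adjusted p = 0.37).

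Mcpt8 and Gzmd encode serine proteases of leukocyte granules in one gene cluster on chromosome 14. Mcpt8 had 7.20 and 7.64 against 10.93 and 9.86 (log2 difference 2.98, adjusted p = 0.21), and Gzmd 2.47 and 2.99 against 5.09 and 5.19 (log2 difference 2.41, adjusted p = 0.20). Their neighbour Gzme, also picked after its values were seen, had 5.45 and 6.49 against 8.86 and 8.35 without passing (adjusted p = 0.44). GFP Naïve replicate 1 was also high for these genes, at 9.84 for Mcpt8, 3.97 for Gzmd and 8.95 for Gzme, against 7.99, 2.35 and 4.71 on replicate 2. Of 13 proteases of the cluster, a list drawn up after values had been seen, 2 were higher and none lower (median 0.14). The shares over all genes were 0.456% higher and 1.2% lower. The summed signal of leukocyte markers was no higher in the recurred cells, at 10.44 and 10.06 on the Cre Naïve and 9.99 and 10.05 on the Cre Recurred arrays on a log2 scale. Its part in these genes was not tested.

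Other genes among the largest differences were Mecom (log2 difference 1.98), Gatm (1.90), Nap1l2 (2.01), Gimap9 (2.02), Dcaf8l (2.20) and the uncharacterised Gm31445 (2.08) on the higher side. On the lower side were the scavenger receptor Scara3 (-5.36), Clca3a1 (-4.61), the urea transporter Slc14a1 (-4.40), the flippase Atp8b1 (-4.38) and D930003E18Rik (-3.81). Adjusted p values lay from 0.083 to 0.23 over these genes. For Scara3, Clca3a1, Slc14a1 and Atp8b1 Cre Naïve replicate 2 was over 2 log2 units below replicate 1. Dimmer probe sets of Mecom had 0.46 and 0.34 and passed no threshold. Clu, Gpr149 and Pla2g7, genes for which the study designed primers, passed neither threshold. Clu (clusterin) had 11.31 and 8.04 against 6.51 and 6.98 (adjusted p = 0.36). Gpr149 had 5.72 and 6.80 against 9.42 and 7.43 (adjusted p = 0.32), and Pla2g7 5.40 and 6.71 against 7.42 and 8.03 (adjusted p = 0.35). None of the 3 overlapped between the populations, a pattern shared by 45.2% of all genes.

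Cell cycle genes held a single call. Of 44 replication and G1/S E2F target genes 33 were positive (median 0.17), against 57.2% positive and a median of 0.05 over all genes. The 1 called gene, against 1.65% of all genes, was Gins1, a subunit of the replicative helicase. It had 9.16 and 9.32 against 10.07 and 9.77 (log2 difference 0.68, adjusted p = 0.22). A dimmer probe set of Gins1 had 0.11 and passed no threshold (adjusted p = 0.79 from limma). Set against the average array, this list had a median of 0.27 on Cre Recurred replicate 1 and 0.04 on replicate 2, so replicate 1 was the higher of the pair. Mitotic genes (27 of 40 positive, median 0.10) were instead high on Cre Naïve replicate 2 and Cre Recurred replicate 2, with 0.36 and 0.37, and low on the other arrays of both populations, with -0.05 and 0.10. The sign of their median turned with the array left out, from 0.25 on omission of Cre Naïve replicate 2 to -0.13 on that of Cre Naïve replicate 1. Ccnd1 (cyclin D1) had 10.55 and 10.92 against 11.73 and 11.08 (adjusted p = 0.36). None of 32 RB family, E2F, cyclin and CDK inhibitor genes was called.

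Genes of the damage response and of drug handling held few calls. Fanca, of the Fanconi pathway that repairs crosslinks, had 7.82 and 7.90 against 8.86 and 8.53 (log2 difference 0.83, adjusted p = 0.15), the 1 call among 41 repair genes (median 0.04). Bcl2, which blocks apoptosis, had 7.04 and 7.45 against 8.46 and 8.07 (log2 difference 1.02, adjusted p = 0.22), the 1 call among 26 genes of the Bcl2 family and death receptors (median 0.02). Both passed the looser thresholds upwards, and neither overlapped between populations, as was so on the higher side for 27.4% of all genes. The looser thresholds were passed upwards by 0.456% of all genes and downwards by 1.2%. Of 32 p53 target genes 23 were negative (median -0.22) but none was called, while 57.2% of all genes were positive (median 0.05). Trp53inp1 had 8.65 and 9.46 against 6.50 and 7.83 (log2 difference -1.89, adjusted p = 0.251), and Fas 9.37 and 9.06 against 7.06 and 8.66. The median of this list was -0.02 without Cre Naïve replicate 2. None of 37 genes of efflux, platinum uptake, metallothionein and glutathione was called, and the largest difference was that of the efflux pump Abcc3, with 8.54 and 6.87 against 4.45 and 5.93 (log2 difference -2.51, adjusted p = 0.29). None of 36 genes of DNA methylation and Polycomb was called at its brightest probe set (median 0.06), with Dnmt3b at -0.46 and Hells at 0.56. A dimmer probe set of Hells had 0.70 and passed the looser threshold (adjusted p = 0.20 from limma). Another had 0.71 without passing (adjusted p = 0.29), and a second probe set of Dnmt3b had 0.21.

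**Figure D3:**
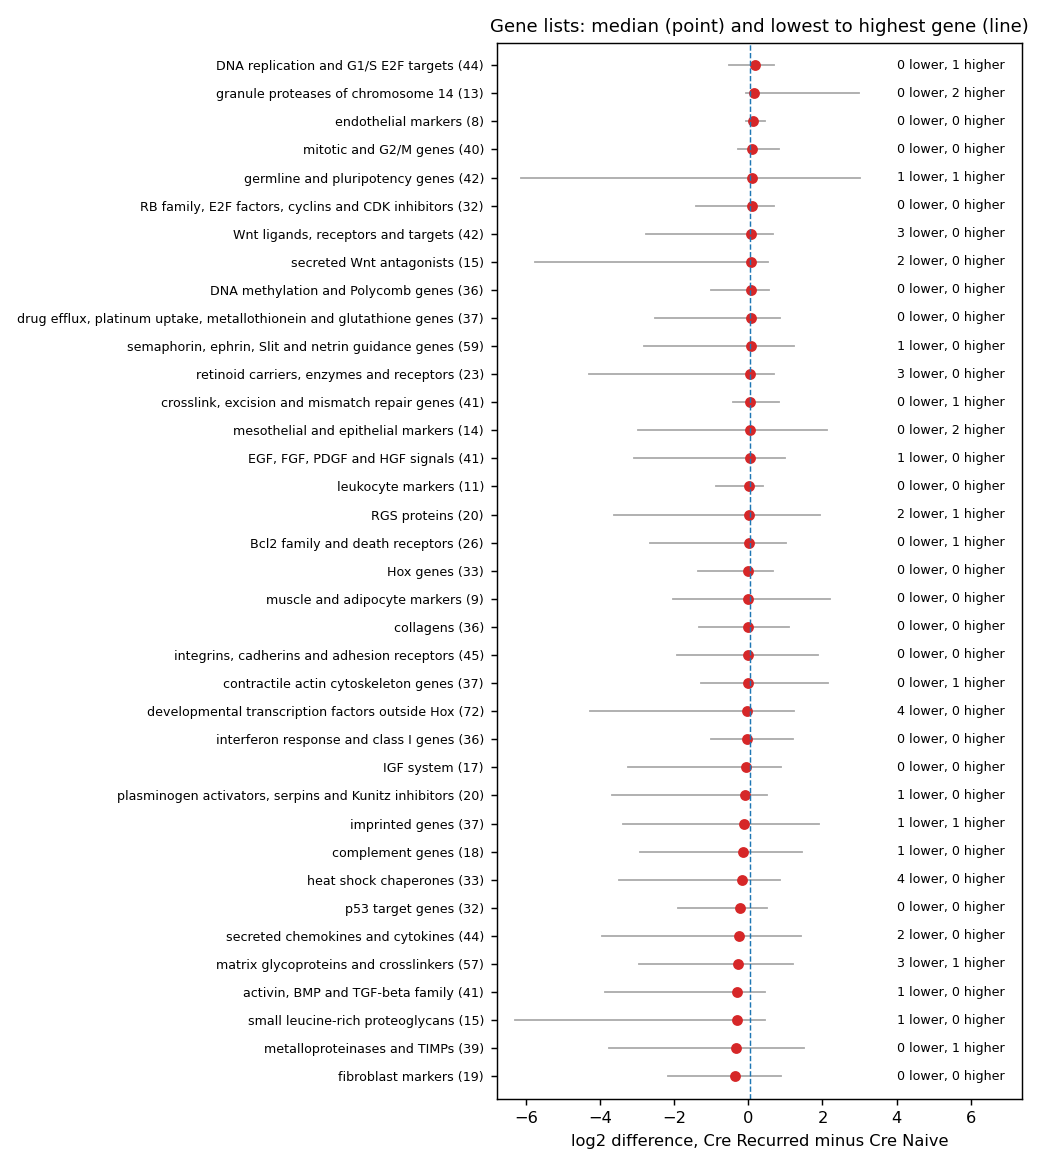
Log2 difference, Cre Recurred minus Cre Naïve (horizontal axis), for 37 gene lists, each followed by how many of its genes were measured. Points are medians, lines run from the lowest to the highest gene, the dashed line is the median over all genes (0.05), and the text on the right counts genes past the study's thresholds. Medians lie between -0.35 for fibroblast markers and 0.17 for replication genes, while single genes reach -6.31.

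Fibroblast identity genes were uneven between the recurred replicates. Of 19 markers 13 were negative (median -0.35) and none was called. Prrx1 had 12.10 and 11.95 against 10.56 and 11.43, Fap 7.45 and 5.76 against 3.65 and 5.24, and Thy1 9.05 and 9.03 against 9.92 and 9.93 (adjusted p = 0.31, 0.34 and 0.32). Set against the average array, the list had a median of -0.38 on Cre Recurred replicate 1 and -0.01 on replicate 2. Summed over the list, the log2 signal was 15.8 on replicate 1 and 16.4 on replicate 2, against 16.4 on both Cre Naïve arrays. Without Cre Recurred replicate 1 the median of the list was -0.11.

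The place of Cre Naïve replicate 2 was read from the 474 probe sets that were 4-fold or more lower in the Cre Recurred mean than on Cre Naïve replicate 1. On a scale from replicate 1 (0%) to the Cre Recurred mean (100%), replicate 2 had a median of 62.5%, with quartiles of 46.8% and 80.4%. The GFP arrays, which are placed by the same rule, had medians of 13.1% and 31.4% for GFP Naïve and 8.5% and 8.88% for GFP Recurred. At the 71 probe sets 4-fold or more higher, Cre Naïve replicate 2 had a median of 71.4%, and the GFP arrays lay from -4.17% to 21.7%. The choice of probe sets by their distance from replicate 1 itself places replicate 2 towards the recurred cells. With replicate 2 as the anchor, a scale added after the data were seen, 120 probe sets were 4-fold or more lower and replicate 1 had a median of -26.5% (quartiles -68.7% and 33.6%), that is, farther from the recurred cells than replicate 2. At the 34 probe sets higher on that scale, replicate 1 had a median of 23.2%, on the recurred side of replicate 2. Scara3 had 9.70 on replicate 1, 6.42 on replicate 2, and 2.98 and 2.42 in the recurred cells. Myf5, a myogenic factor, had 2.66 on replicate 1 but 6.77 on replicate 2, the level of the recurred cells (7.05 and 6.80), and was also at 5.29 on GFP Naïve replicate 2 against 2.59 on GFP Naïve replicate 1. Not all genes did so. Rbp4, Rgs4, Wnt4, Dnaja4, Klhl23, Endog and Entpd5 were near level on the Cre Naïve replicates, as at 7.84 and 8.13 for Rbp4.

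**Figure D4:**
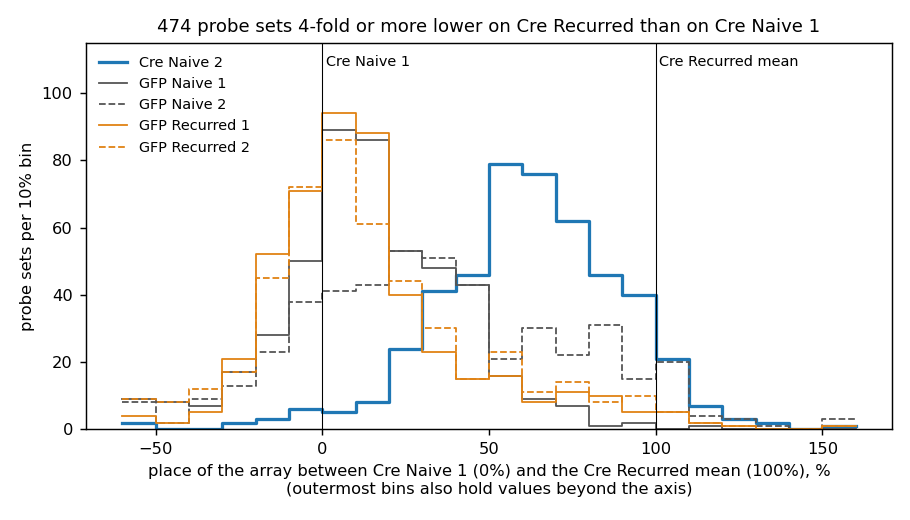
Number of probe sets per 10% bin (vertical axis) by the place of each array between Cre Naïve replicate 1 (0%) and the Cre Recurred mean (100%), for the 474 probe sets 4-fold or more lower in the Cre Recurred mean than on Cre Naïve replicate 1. Cre Naïve replicate 2 centres on 62.5%, and the 4 GFP arrays centre between 8.5% and 31.4%.

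RB-proficient cells went through the same treatment, which allows the recurrence difference to be compared between genotypes. In GFP cells 6 probe sets (0.0133%) passed the study's thresholds and none the stricter one in limma, with an unadjusted p under 0.05 at 2485, against 5387 in Cre cells. The difference between the genotypes, tested as an interaction, passed the study's thresholds at 180 probe sets (0.4%), 70 higher (0.155%) and 110 lower (0.244%) in Cre cells. None passed the stricter threshold (smallest adjusted p = 0.056, and 4656 with an unadjusted p under 0.05). Of the 349 probe sets called lower in Cre cells, 22 were 1.5-fold or more lower and 58 were 1.5-fold or more higher after recurrence in GFP cells. Of the 175 called higher, 6 were higher and 19 lower by that margin. The interaction count was 0 without either GFP Recurred array or Cre Recurred replicate 1, 15 on omission of GFP Naïve replicate 1, 371 on that of GFP Naïve replicate 2, 1611 on that of Cre Naïve replicate 2 and 2953 on that of Cre Recurred replicate 2.

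**Figure D5:**
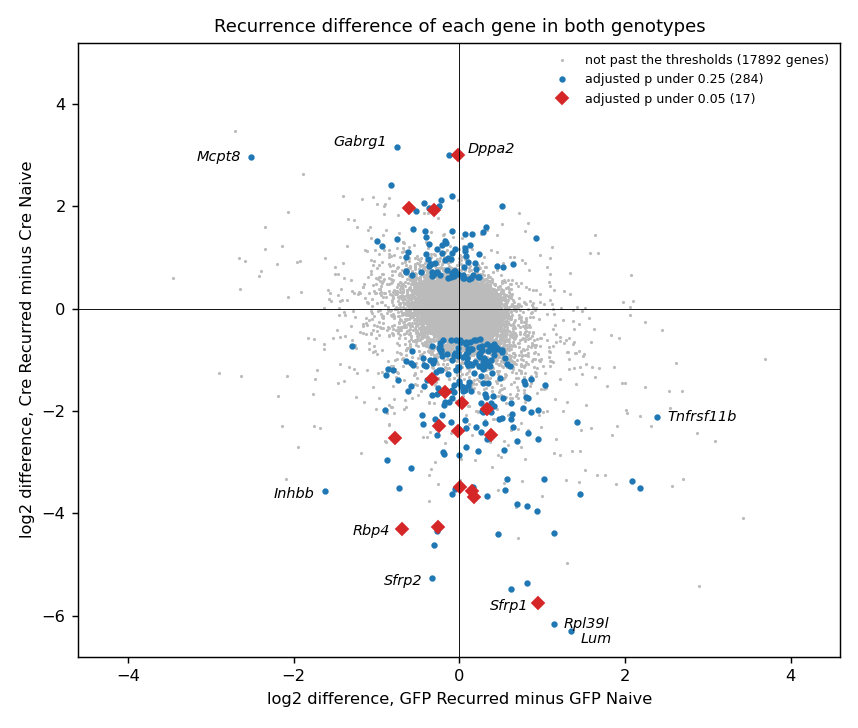
Log2 difference of each of 18193 genes after recurrence in GFP cells (horizontal axis) and in Cre cells (vertical axis), coloured by the threshold passed in Cre cells. Sfrp1 lies at 0.95 and -5.75, Dppa2 at -0.02 and 3.005, and Tnfrsf11b at 2.39 and -2.12.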

How the data were processed

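RNA from 8 cultures was hybridised to Affymetrix mouse genome arrays, 1 array per culture and 2 per population. The authors deposited log2 values after RMA, which normalises all arrays together. Per the methods, labelled cRNA from TRIzol-extracted RNA was hybridised and scanned by the Affymetrix protocol, and significance was assessed with SAM. The RMA software and its version were not given in the sources used here. Array medians lay from 5.37 to 5.41, and 2 arrays per population limit the precision. After 64 control probe sets were left out, 45037 entered a linear model (R 4.3.3, limma 3.58.1) over all 8 arrays, in which each population had its own mean, with Benjamini-Hochberg adjustment. The thresholds were those of the methods, 1.5-fold and 0.25, and a stricter 0.05. Probe sets were named from the platform annotation: 34945 had 1 gene symbol, 932 several and 9160 none. A gene was read at its brightest probe set. Called genes of a list, its smallest p values, the 15 largest differences each way and the genes with primers in the methods were named. Members and lists were chosen with earlier results of these data known. The scripts were tested on simulated data. Alternatives changed the prior, scaling, filter, probe sets, arrays and replicate block, with a SAM-type statistic. Promoter windows came from RefSeq. The methods describe the populations as independently generated, without saying at which step they were separated.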

Additional observations from a re-analysis of the deposited data

Results flagged for a closer look

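The recurrence difference was larger or smaller in Cre than in GFP cells at 180 probe sets by the interaction test in limma. What drew attention to the genes below is that their own difference between genotypes passed that test. They were taken from the genes named above, largely named for their difference in Cre cells. That difference is part of the interaction, so passing it is not separate support. Values in brackets are the log2 difference after recurrence in Cre cells minus that in GFP cells. The smallest adjusted p, 0.056, was shared by 2210016F16Rik (-3.70), Klhl23 (-2.29) and Tnfrsf11b (-4.51).

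Among genes of the Wnt pathway and the matrix these were Sfrp1 (-6.71), Wnt4 (-3.30), Ror1 (-2.24), Ror2 (-3.25), Lum (-7.65) and Tfpi2 (-3.86) on the negative side and Loxl4 (2.15) on the positive side. Among signalling proteins they were Rgs4 (-1.76), Prkar1b (-2.84) and Rbp4 (-3.60), with Rgs20 (2.23) positive. Chaperones were represented by Hspa1a (-3.49) and Dnaja4 (-2.05), and organelle proteins by Endog (-1.88), Entpd5 (-1.03) and Foxred2 (-1.45). Others on the negative side were Tshz2 (-4.01), Rnf113a2 (-2.37), Rpl39l (-7.29), AW551984 (-6.10) and D930003E18Rik (-4.50). Positive as well were Dppa2 (3.02), Ap1s3 (2.58), Mcpt8 (5.49), Dcaf8l (2.29), Gm31445 (2.50), Bcl2 (1.67) and Fanca (1.20). For Mcpt8 the GFP cells contributed a difference of -2.51, with GFP Naïve replicate 1 at 9.84 and replicate 2 at 7.99. Adjusted p values of all these genes lay from 0.056 to 0.24, so none passed the stricter threshold.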

How the results depend on the processing

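Of the genes named with values, Bbof1 (-0.05) turned sign, to 0.15 without Cre Naïve replicate 2 and 0.03 without Cre Recurred replicate 1, in a range from -0.25 to 0.15 with 1 array left out, and no other did in the alternatives that kept its probe set. Leaving out dim probe sets kept 14 of the 17 genes past the stricter threshold, and 42 of 50 past the looser one alone, for testing. In the main fit 524 probe sets passed 1.5-fold and an adjusted p under 0.25. With only the 4 Cre arrays in the limma fit 55 were called, 46 of them shared with the main fit. A SAM-type statistic called 116, of which 99 were shared. The other scalings, filters and priors gave 426 to 558. With dim probe sets left out, 86 were higher and 340 lower, or 79.8% lower against 66.6%. In place of 24 past the stricter threshold, 0 were called with only the 4 Cre arrays. A trended and robust prior called 40, of which 22 were shared with the main fit. That prior kept 16 of 17 genes and lost Sfrp1, and cyclic loess kept 16 and lost Ap1s3. With 1 array left out the counts ran from 19 to 2895, from 0 to 279 at the stricter threshold, and from 0 to 2953 for the interaction (180). The lone array of a population was then taken to vary like the others. Without Cre Naïve replicate 1, 5 of the 17 genes stayed past the stricter threshold, without Cre Recurred replicate 2 also 5, without either GFP Naïve array 13, and without Cre Naïve replicate 2 all 17. Replicate numbers were not taken to pair the arrays, since correlations of same-numbered deviations from the population means ran from -0.255 (GFP Naïve with Cre Recurred) to 0.307 (GFP Recurred with Cre Recurred), with 0.04 between the Cre populations, 0.24 for GFP Recurred with Cre Naïve, 0.13 for GFP Naïve with Cre Naïve and -0.03 between the GFP populations. With the replicate number as a block, 445, 15 and 190 probe sets were called in place of 524, 24 and 180, and 7 of the 17 genes stayed past the stricter threshold. The cause of these shifts was not tested. Signal near the background limits what dim genes can show.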

Other observations

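Other gene groups held few calls or none at the study's thresholds. Of all genes, 1.2% were lower and 0.456% higher, and 57.2% had a positive difference. Among 18 complement genes (11 negative, median -0.15) the lectin pathway protease Masp1 was lower, with log2 signals of 8.70 and 8.71 on the Cre Naïve and 8.08 and 7.98 on the Cre Recurred arrays (log2 difference -0.67, adjusted p = 0.24 from limma). Dimmer probe sets of Masp1 ran from -0.51 to 0.14 and passed no threshold. The C1 inhibitor Serping1 had 12.19 and 10.22 against 7.90 and 9.28 without passing (adjusted p = 0.29). Among 59 axon guidance genes (34 positive, median 0.06) the ephrin receptor Epha1 was lower, with 6.13 and 5.75 against 5.08 and 5.17 (log2 difference -0.82, adjusted p = 0.18). Dimmer probe sets of Epha1 had -0.41 and 0.05 and passed no threshold. Sema3a, a repulsive guidance cue, had 8.17 and 8.78 against 9.94 and 9.49 (log2 difference 1.24, adjusted p = 0.254).

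Among 37 contractile and actin genes (21 negative, median -0.02) skeletal actin, Acta1, was higher, with 6.36 and 6.17 against 7.10 and 7.11 (log2 difference 0.84, adjusted p = 0.18). Of 37 imprinted genes (23 negative, median -0.12) Gatm was higher and Impact lower, the latter with 9.94 and 9.67 against 9.08 and 8.79 (log2 difference -0.87, adjusted p = 0.249). Dimmer probe sets of Impact had -0.38 and 0.21 and passed no threshold. No gene was called among 36 interferon response and class I genes (median -0.05), 45 integrins, cadherins and adhesion receptors (median -0.02) and 17 genes of the IGF system (median -0.07). Oas1a, an antiviral enzyme, had 8.36 and 7.62 against 9.54 and 8.84 (adjusted p = 0.33), and the adhesion receptor Vcam1 11.29 and 9.55 against 8.57 and 8.65 (adjusted p = 0.30).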
